A study of Mus musculus with 6 samples.

Results

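The 43 genes described here were taken by symbol from the 22332 rows of the deposited table: 11 regulators of the integrated stress response, 4 stress effectors, 7 amino acid and one-carbon enzymes, 8 amino acid transporters and 13 cytosolic aminoacyl-tRNA synthetases. All 43 had a row, and all 43 passed the filter on low counts, as did 15084 genes in all. The study measured rRNA-depleted total RNA from the mouse embryonic stem cell line CGR8, kept on gelatin with LIF and 10% fetal bovine serum. Every culture was transfected and collected 48 hours later: 3 cultures had received a pool of non-targeting siRNAs (siCtrl) and 3 a pool of siRNAs against Rsl24d1 (siRSL24D1), whose protein is needed to build the larger part of the ribosome. The comparison asks how transcript levels differ when this factor is reduced; both groups were transfected, and untransfected cells were not analysed here.

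The integrated stress response is the pathway by which cells answer amino acid shortage, unfolded protein, double-stranded RNA or heme shortage with 1 common step, the phosphorylation of the initiation factor eIF2. This slows translation of most mRNAs, while upstream reading frames let the mRNA of the transcription factor ATF4 be translated more, so the activity of ATF4 is set to a large part at translation and not by its mRNA level. ATF4, paired with C/EBP proteins, switches on genes for amino acid synthesis and uptake, for serine and one-carbon metabolism and for the aminoacyl-tRNA synthetases, which load tRNAs with amino acids. It also switches on genes that feed back on the pathway.

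Library totals were 30943635 to 35214000 estimated counts. Levels below are CPM, the counts per library scaled to a common size over the genes kept by the filter with TMM factors. Rsl24d1 was at 99.4, 103 and 97.9 CPM in siCtrl and 53.8, 55.6 and 52.1 CPM in siRSL24D1, and its level fell to 0.538 of that in siCtrl (log2 fold change -0.89, SE 0.04, edgeR adjusted p = 2.0e-05). The defining stem cell markers Pou5f1 (438 to 505 CPM in siCtrl, 459 to 514 in siRSL24D1) and Sox2 (119 to 122 and 126 to 130.4) were high in all 6 libraries. Of 8 stem cell markers Zfp42 rose (1.18-fold), and Nanog, Dppa5a, Esrrb and Utf1 fell, to 0.712, 0.722, 0.888 and 0.894 of siCtrl. Their summed level was 2361 to 2699 CPM in siCtrl and 2157 to 2275 in siRSL24D1. Of these sums, Dppa5a alone made up a mean of 1158 CPM in siCtrl and 836 CPM in siRSL24D1. The summed level of 5 tested primitive endoderm markers was 17.3 to 19.5 CPM in siCtrl and 17.4 to 18.3 in siRSL24D1, while Gata6 and Gata4 rose (1.41-fold and 1.45-fold) and Dab2 fell to 0.744 of siCtrl. For 7 tested fibroblast markers it was 126 to 158 and 123 to 147 CPM, most of it from the collagens Col1a1 and Col1a2, while Col3a1 rose (1.52-fold) and Col1a2 and Pdgfrb fell to 0.725 and 0.695 of siCtrl. No marker of these lists was at 0 in every library. The part of these cell types in the results below was not tested. In bulk RNA, fewer cells that express a gene and less RNA per cell cannot be told apart.

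The stress and amino acid genes did not move as a block. In siRSL24D1, 10 of 43 members rose (23.3%) and 6 fell (14.0%), against 21.2% of all genes tested that rose and 20.0% that fell, so that 37.2% of the members passed the test where 41.2% of all genes did (edgeR quasi-likelihood test, adjusted p under 0.05 over all genes). The members that rose were Atf4, Trib3, Ppp1r15a, Mthfd2, Slc3a2, Slc7a1, Slc38a2, Aars, Tars and Cars. Those that fell were Eif2ak4, Ddit4, Stc2, Asns, Phgdh and Sars. The median log2 fold change over the 43 members was 0.07, beside 0.02 over all genes tested. The largest rise was 1.45-fold, while 5.85% of all genes passed with a rise of at least 1.5-fold. One member, Stc2, fell at least 1.5-fold, as did 5.52% of all genes. Library by library, 14 members had all siRSL24D1 values above all siCtrl values and 12 had them below (26.8% and 26.2% of all genes).

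The summed level of the 43 members was 4149, 4143 and 4032 CPM in siCtrl and 4040.2, 4157 and 4052 CPM in siRSL24D1, so the groups overlapped. By role the sums parted. The enzymes summed to 762 to 836 CPM in siCtrl and 597 to 646 CPM in siRSL24D1, with no overlap, and the effectors to 209 to 244 and 169 to 198 CPM. Transporters went the other way, with 512 to 557 CPM in siCtrl and 663 to 686 CPM in siRSL24D1. The regulators summed to 309.9 to 318 and 329 to 342 CPM. For the synthetases the groups overlapped, at 2187 to 2260.2 and 2236 to 2320.03 CPM. Such sums follow the most abundant members (Asns, Ddit4, Slc38a2, Eprs).

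**Figure D1:**
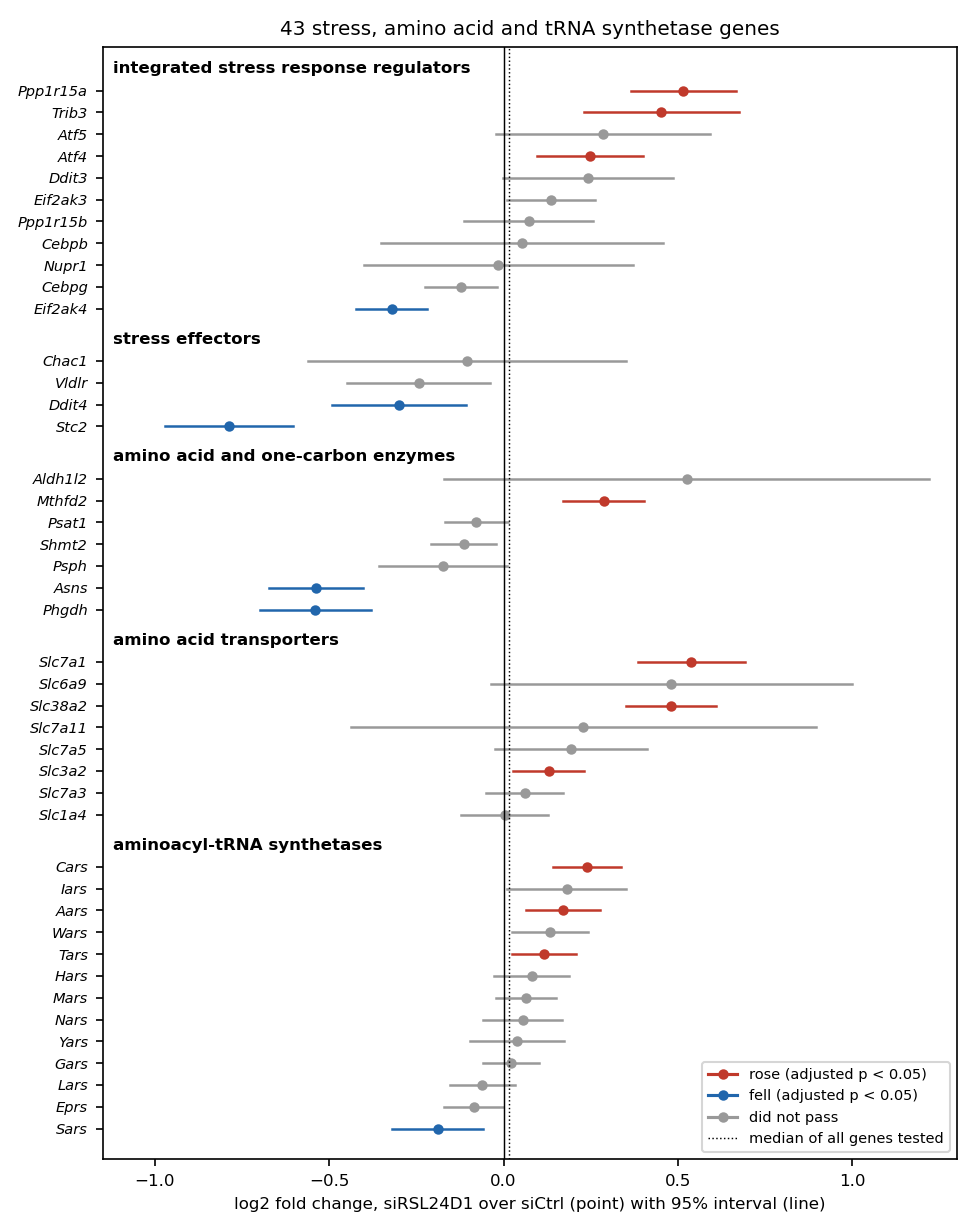
Log2 fold change of each of the 43 members, siRSL24D1 over siCtrl (point), with its 95% interval from the edgeR fit (line), ordered within the 5 role groups; red rose, blue fell, grey did not pass, and the dotted line is the median of all genes tested. The 16 members that passed lie between -0.79 (Stc2) and 0.54 (Slc7a1), on both sides of 0, and the widest intervals belong to the members with the fewest counts.

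ATF4 and its C/EBP partners bind the C/EBP-ATF response element, TGATGNAA read on either strand. To see whether the members share it, both strands of the RefSeq promoter windows (GRCm38.p6, 250 bases before to 50 after each gene start) were searched. Of the 43 members 34 had a window, Mars by its newer symbol Mars1, and 12 of these 34 genes (35.3%) held the element, beside 4.51% of all 27025 genes with a window and 2.81% of the 11855 tested genes with one. Counted by window, it was 12 of 41 windows of members and 1304 of 32851 windows in all (3.97%). The 12 were Trib3, Nupr1, Chac1, Vldlr, Asns, Slc7a11, Slc1a4, Aars, Gars, Iars, Tars and Yars. Ppp1r15b, Aldh1l2, Slc7a5, Slc7a3, Wars, Nars, Lars, Cars and Hars had no matching entry. A match describes letters and is no evidence of binding, and a window without one says only that these letters are not in it.

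The sequences below show the element, in capitals, in members that fell, rose or did not pass, so that the shared element and the unlike changes can be read side by side. Each is the stretch before the gene start, read 5′ to 3′ on the gene's strand, from RefSeq: Asns chr6:7693214-7693243 on the minus strand, Tars chr15:11399659-11399684 on the minus strand, Chac1 chr2:119351029-119351076 on the plus strand, Nupr1 chr7:126625562-126625591 on the minus strand, Vldlr chr19:27216809-27216838 on the plus strand, Gars chr6:55037951-55037998 on the plus strand and Slc7a11 chr3:50443633-50443699 on the minus strand.
Asns: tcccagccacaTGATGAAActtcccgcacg
Tars: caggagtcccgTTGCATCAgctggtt
Chac1: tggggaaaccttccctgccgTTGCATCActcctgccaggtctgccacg
Nupr1: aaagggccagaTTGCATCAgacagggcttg
Vldlr: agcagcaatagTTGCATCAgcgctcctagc
Gars: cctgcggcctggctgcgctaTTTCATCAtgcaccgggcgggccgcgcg
Slc7a11: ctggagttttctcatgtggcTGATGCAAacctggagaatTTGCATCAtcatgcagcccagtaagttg
Asns fell, Tars rose, and the other 5 did not pass. The whole stretch shown for Asns, Nupr1 and Vldlr, and 7 bases of that for Tars, also lie in an exon of a GENCODE M21 transcript, so these are printed with 11 bases on either side at most; the rest have 20. Slc7a11 holds the element in both orientations. In Trib3, Slc1a4, Iars and Yars the match lay at or after the gene start and is not shown.

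Members with the element did not change as 1 group. Of the 12, 3 rose (Trib3, Aars and Tars), 1 fell (Asns) and 8 did not pass, with a median log2 fold change of 0.03. Of the 22 whose window lacked the element, 6 rose, 5 fell and 11 did not pass, with a median of 0.06. Over all genes tested, 21.2% rose and 20.0% fell, with a median of 0.02. Aars lost its call in 7 of 20 alternatives and Tars in 15. These counts are a description, since the genes were collected partly for being known ATF4 targets.

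**Figure D2:**
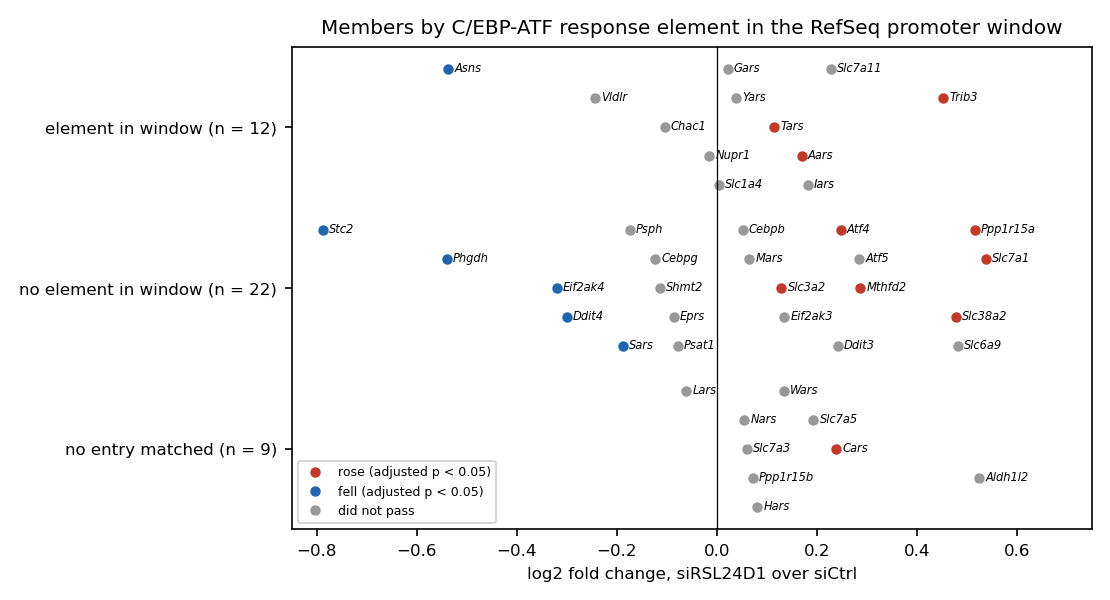
Log2 fold change, siRSL24D1 over siCtrl, of the members split by the C/EBP-ATF response element in their RefSeq promoter window; each point is 1 gene, its vertical place within a class only separates the names, and colours are as in the plot of fold changes. The 12 members with the element run from Asns at -0.54 to Trib3 at 0.45, with 8 of them grey.

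Among the regulators, Atf4, Ppp1r15a and Trib3 rose and Eif2ak4 fell. Of 11, 3 rose (27.3%, beside 21.2% of all genes), 1 fell (9.09%, beside 20.0%) and 7 did not pass. Their median log2 fold change was 0.14. Atf4 (chromosome 15, 80255184 to 80257541, plus strand, GRCm38) was at 63.7, 62.4 and 54.8 CPM in siCtrl and 68.1, 74.8 and 71.9 CPM in siRSL24D1. The highest siCtrl library lay below the lowest siRSL24D1 library, and the rise was 1.19-fold (log2 fold change 0.25, SE 0.07, adjusted p = 0.0174). Without siRSL24D1 3 that call was lost (edgeR adjusted p = 0.0543, log2 fold change 0.25).

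Ppp1r15a (chromosome 7, 45522916 to 45526268, minus strand), also called GADD34, is the stress-induced subunit of the phosphatase that removes the phosphate from eIF2. Its level was 27.1, 25.5 and 23.8 CPM in siCtrl and 34.1, 37.9 and 36.998 CPM in siRSL24D1, a clean separation, and it rose 1.43-fold (log2 fold change 0.52, SE 0.07, adjusted p = 0.000581). Ppp1r15b, the constitutive counterpart, was at 91.9, 91.2 and 106 CPM in siCtrl and 103, 91.3 and 109.8 CPM in siRSL24D1. Those groups overlapped, and its log2 fold change was 0.07 with a 95% interval of -0.11 to 0.26 (adjusted p = 0.514). The difference between the 2 subunits was not tested.

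Trib3 (chromosome 2, 152337422 to 152344032, minus strand), a pseudokinase that is induced by ATF4 and curbs it, was low, at 3.69, 3.72 and 4.07 CPM in siCtrl and 5.13, 5.501 and 5.08 CPM in siRSL24D1. The 6 libraries held 122, 121 and 139 counts in siCtrl and 161, 193 and 169 in siRSL24D1. The groups did not overlap, and the rise was 1.37-fold (log2 fold change 0.45, SE 0.10, adjusted p = 0.00689). Ddit3 (chromosome 10, 127290774 to 127296288, plus strand), the death-associated factor CHOP, was at 6.05, 5.87 and 5.33 CPM in siCtrl and 6.31, 7.64 and 6.44 CPM in siRSL24D1. All 3 siRSL24D1 values lay above siCtrl, by little, and it did not pass (log2 fold change 0.24, 95% interval -0.00094 to 0.49, adjusted p = 0.101). It passed after a correction for transcript length. Exons of Ddit3 and of Mars, on opposite strands, share 68 bases, and the strand setting of the counting is not given in the sources used here.

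The kinases that phosphorylate eIF2 differed among themselves. Eif2ak4 (chromosome 2, 118388618 to 118475234, plus strand), the kinase GCN2 that senses uncharged tRNA, was at 44.3, 45.5 and 45.3 CPM in siCtrl and 37.1, 35.9 and 35.1 CPM in siRSL24D1. It was lower in every siRSL24D1 library and fell to 0.801 of siCtrl (log2 fold change -0.32, SE 0.04, adjusted p = 0.000884). Eif2ak3, the endoplasmic reticulum kinase PERK, was at 21.9, 22.9 and 23.8 CPM in siCtrl and 24.7, 25.99 and 24.6 CPM in siRSL24D1. These groups did not overlap either, but the difference did not pass (log2 fold change 0.14, adjusted p = 0.08098). With library totals Eif2ak3 passed as higher. Of the kinases outside the 43 members, Eif2ak1, the heme-regulated kinase HRI, was at 32.5, 30.2 and 31.1 CPM in siCtrl and 40.5, 45.3 and 40.6 CPM in siRSL24D1 and rose 1.35-fold (adjusted p = 0.000908). Eif2ak2, the double-stranded RNA kinase PKR and an interferon-stimulated gene, was at 81.2, 85.2 and 80.1 CPM in siCtrl and 63.04, 67.4 and 62.1 CPM in siRSL24D1 and fell to 0.781 of siCtrl (adjusted p = 0.000783). So 1 kinase transcript rose, 2 fell and 1 did not pass.

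The remaining regulators did not pass. Cebpg, a C/EBP partner of ATF4, was at 44.5 to 46.01 CPM in siCtrl and 40.3 to 42.8 CPM in siRSL24D1 (log2 fold change -0.12, adjusted p = 0.0581), and it passed as lower under 5 alternatives, DESeq2 size factors and the length correction among them. Atf5, a relative of ATF4 under the same kind of translational control, had a log2 fold change of 0.28 (95% interval -0.02 to 0.59, adjusted p = 0.122). Without siCtrl 1 it passed as higher. Cebpb and Nupr1, a C/EBP factor and a small stress-induced chromatin protein, were both near 2.3 CPM. Their intervals were -0.35 to 0.46 and -0.40 to 0.37, and 20.7% of the exon bases of Cebpb overlap Tmem189 on the opposite strand.

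**Figure D3:**
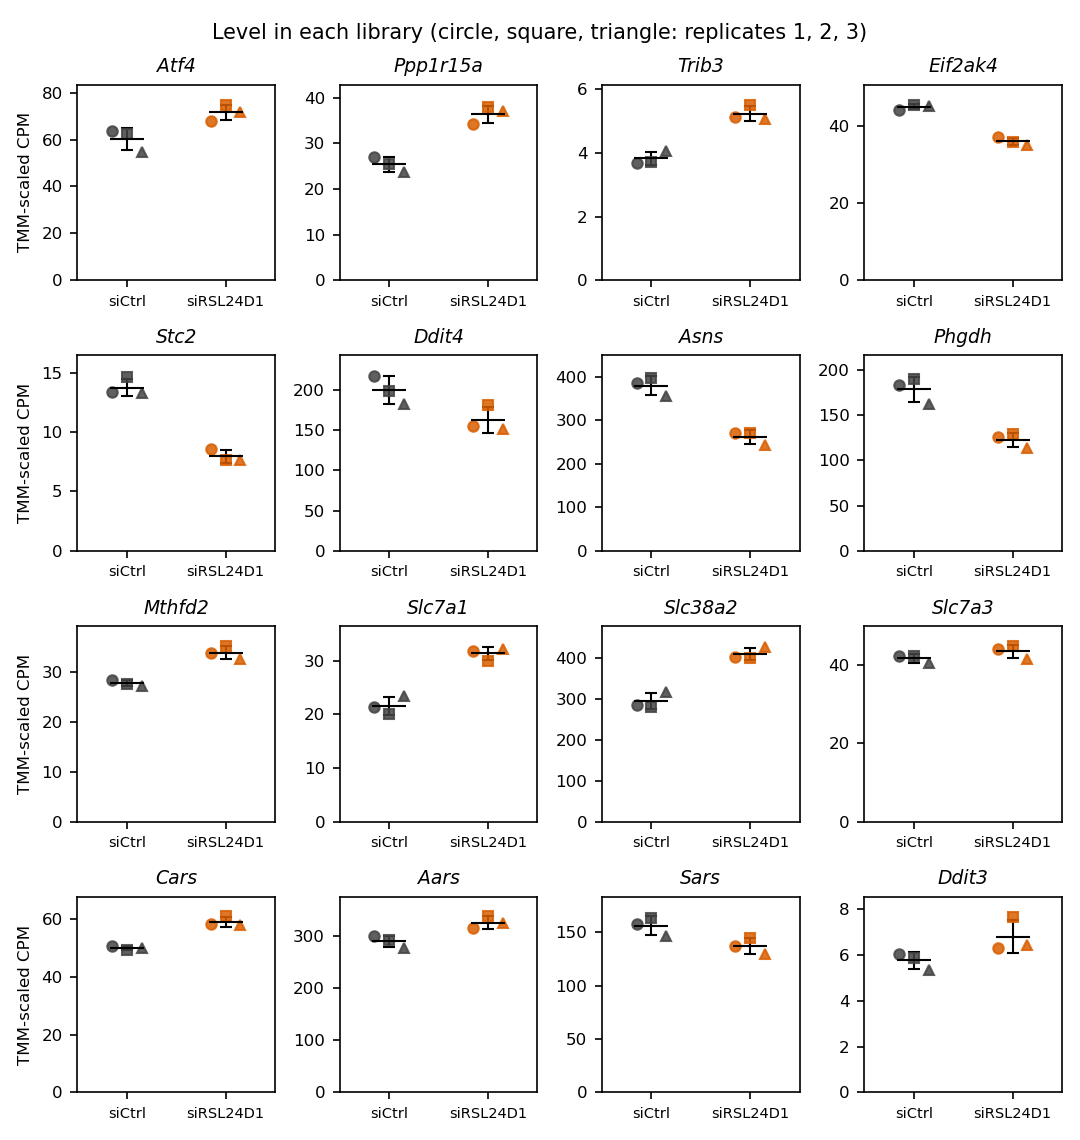
Level in each library, in TMM-scaled CPM on axes that start at 0, for 16 members; symbols are replicates 1, 2 and 3, the horizontal bar is the mean and the error bar the SD of 3 libraries. The groups separate for 15 of the 16 genes, upward for Ppp1r15a, Slc7a1 and Slc38a2 and downward for Stc2, Asns and Phgdh among others, and they overlap for Slc7a3. That share follows from the choice of genes. All but Slc7a3 and Ddit3 passed the test, and the groups separate in all 16 members that passed. Of all genes tested, 26.8% separate upward and 26.2% downward.

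The stress effectors were lower or did not pass: of 4, 2 fell, 0 rose and 2 did not pass with edgeR. Over all genes, 20.0% fell and 21.2% rose. The median log2 fold change of the effectors was -0.27. The number higher was also 0 at an unadjusted p under 0.05, with DESeq2 and with limma-voom. Stc2 (chromosome 11, 31357307 to 31370074, minus strand), stanniocalcin 2, a secreted glycoprotein induced by endoplasmic reticulum stress and by hypoxia, had the largest change of the 43 members. It was at 13.4, 14.6 and 13.2 CPM in siCtrl and 8.601, 7.61 and 7.67 CPM in siRSL24D1 and fell to 0.579 of siCtrl (log2 fold change -0.79, SE 0.08, adjusted p = 0.000223). No siRSL24D1 library came near the lowest siCtrl library. Ddit4 (chromosome 10, 59949669 to 59951834, minus strand), which encodes the mTORC1 inhibitor REDD1 and also responds to hypoxia and p53, was at 217, 199 and 182 CPM in siCtrl and 155, 181 and 151 CPM in siRSL24D1. It fell to 0.813 of siCtrl (log2 fold change -0.30, SE 0.08, adjusted p = 0.0218), with siCtrl 3 and siRSL24D1 2 nearly touching. Leaving out any library other than siCtrl 3 and siRSL24D1 2 ended that call (adjusted p = 0.0623 to 0.0825), so that 1 effector fell there.

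Chac1 and Vldlr did not pass. Chac1, a glutathione-degrading enzyme strongly induced by ATF4 in many cells, was close to absent, with counts of 29, 27 and 28 in siCtrl and 29, 24 and 25 in siRSL24D1. Its level was 0.877, 0.8297 and 0.821 CPM in siCtrl and 0.924, 0.684 and 0.752 CPM in siRSL24D1, the groups overlapped, and the interval of its log2 fold change, -0.56 to 0.35, was wide. Vldlr, a lipoprotein receptor, was at 12.2, 10.9 and 12.3 CPM in siCtrl and 10.7, 8.98 and 10.3 CPM in siRSL24D1 (log2 fold change -0.24, adjusted p = 0.0585). Its groups did not overlap, and it passed as lower under 7 of 20 alternatives.

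Among the amino acid and one-carbon enzymes, those that make asparagine and start serine synthesis were lower and 1 mitochondrial folate enzyme was higher. Of 7, 1 rose (14.3%, beside 21.2% of all genes), 2 fell (28.6%, beside 20.0%) and 4 did not pass. Their median log2 fold change was -0.11. Asns (chromosome 6, 7675169 to 7693254, minus strand), asparagine synthetase and a standard ATF4 target, was at 384, 398 and 357 CPM in siCtrl and 271, 271 and 244 CPM in siRSL24D1. Every siRSL24D1 library lay far below every siCtrl library, and Asns fell to 0.689 of siCtrl (log2 fold change -0.54, SE 0.06, adjusted p = 0.000303). Phgdh (chromosome 3, 98313170 to 98339990, minus strand), the first enzyme of serine synthesis, was at 183, 189.5 and 162 CPM in siCtrl and 126, 129 and 113 CPM in siRSL24D1. It fell to 0.688 of siCtrl (log2 fold change -0.54, SE 0.07, adjusted p = 0.000625), again with no overlap.

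The next 2 steps of serine synthesis, Psat1 and Psph, were also lower in every siRSL24D1 library than in any siCtrl library, by less, and did not pass. Psat1, the phosphoserine aminotransferase, was at 141, 139 and 135 CPM in siCtrl and 127, 134 and 132 CPM in siRSL24D1 (log2 fold change -0.08, 95% interval -0.17 to 0.01, adjusted p = 0.152). For Psph, the phosphatase of the last step, the log2 fold change was -0.17 (95% interval -0.36 to 0.01, adjusted p = 0.115). The interval of Phgdh, -0.70 to -0.38, lay wholly below that of either gene; the differences were not tested.

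Shmt2 and Mthfd2 work one after the other in mitochondria, where serine gives up its carbon to folate. Shmt2 was at 64.4, 62.7 and 60.9 CPM in siCtrl and 57.9, 58.3 and 57.5 CPM in siRSL24D1 and did not pass (log2 fold change -0.11, adjusted p = 0.0539), although its groups did not overlap. It passed as lower with DESeq2 size factors, with upper quartiles, with the filter of 1 CPM in 3 libraries and without siCtrl 3. Mthfd2 (chromosome 6, 83305691 to 83325908, minus strand) was at 28.4, 27.5 and 27.1 CPM in siCtrl and 33.7, 35.2 and 32.5 CPM in siRSL24D1. It rose 1.22-fold (log2 fold change 0.29, SE 0.05, adjusted p = 0.002802), with every siRSL24D1 library above siCtrl. Aldh1l2, the mitochondrial enzyme that oxidises formyl-folate, held counts of 14, 13 and 14 in siCtrl and 26, 19 and 14 in siRSL24D1, and its interval of -0.17 to 1.22 leaves its direction unknown.

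Amino acid transporters were higher or did not pass. Of 8, 3 rose (37.5%, beside 21.2% of all genes) and 0 fell (beside 20.0%) with edgeR. The share that passed, 37.5%, was below the 41.2% of all genes. The number lower was also 0 at an unadjusted p under 0.05, with DESeq2 and with limma-voom. All 8 log2 fold changes were above 0 with TMM scaling, with a median of 0.21. That of Slc1a4, 0.0038, changed sign under other scalings. Slc7a1 (chromosome 5, 148327410 to 148399904, minus strand), the general carrier of arginine and lysine (CAT-1), was at 21.3, 20.1 and 23.3 CPM in siCtrl and 31.8, 29.98 and 32.2 CPM in siRSL24D1. It had the largest rise of the 43 members, 1.45-fold (log2 fold change 0.54, SE 0.07, adjusted p = 0.000511). Slc38a2 (chromosome 15, 96687392 to 96699730, minus strand), the carrier SNAT2 of small neutral amino acids, was at 285, 280.2 and 318 CPM in siCtrl and 403, 401 and 427 CPM in siRSL24D1. Per kilobase of transcript it was the most abundant of the 8, at a level of 63.2 CPM per kb in siCtrl and 88.1 in siRSL24D1. Slc38a2 rose 1.39-fold (log2 fold change 0.48, SE 0.06, adjusted p = 0.000409). For both genes the lowest siRSL24D1 library was well above the highest siCtrl library.

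Slc7a3, a second carrier of cationic amino acids, was at 42.4, 42.4 and 40.5 CPM in siCtrl and 44.1, 44.9 and 41.7 CPM in siRSL24D1. The groups overlapped and the log2 fold change was 0.06 (95% interval -0.05 to 0.17, adjusted p = 0.349). Per kilobase of transcript, Slc7a3 was the more abundant of the 2 cationic carriers, at a level of 15.2 CPM per kb in siCtrl and 15.8 in siRSL24D1, beside 3.002 and 4.36 for Slc7a1. Their intervals, -0.05 to 0.17 and 0.39 to 0.69, did not touch; the difference between the carriers was not tested.

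Slc3a2 and Slc7a5 encode the heavy and the light chain of the leucine carrier. Slc3a2 (chromosome 19, 8706882 to 8723369, minus strand) was at 98.9, 96.3 and 91.6 CPM in siCtrl and 103, 108 and 103 CPM in siRSL24D1. Its rise was small, 1.09-fold (log2 fold change 0.13, SE 0.04, adjusted p = 0.0472), and the call was lost whichever library was left out (adjusted p = 0.0587 to 0.145). Slc7a5 was at 40.9, 44.3 and 53.3 CPM in siCtrl and 55.6, 49.6 and 53.2 CPM in siRSL24D1. Here siCtrl 3 lay among the siRSL24D1 libraries, and the gene did not pass (log2 fold change 0.19, 95% interval -0.02 to 0.41), but it did without siCtrl 3.

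The last 3 transporters did not pass. Slc1a4, a carrier of alanine, serine and cysteine, was at 26.3, 27.7 and 28.8 CPM in siCtrl and 27.8, 28.4 and 26.8 CPM in siRSL24D1, which left a narrow interval around 0 (-0.12 to 0.13). Slc7a11, the cystine carrier and a well-known ATF4 target, was close to absent at 0.756, 0.461 and 0.528 CPM in siCtrl and 0.796, 0.7696 and 0.481 CPM in siRSL24D1, with an interval of -0.44 to 0.90. Slc6a9, a glycine carrier, was at 0.907, 0.8604 and 1.44 CPM in siCtrl and 1.66, 1.37 and 1.47 CPM in siRSL24D1. Its siCtrl 3 value lay within the siRSL24D1 range, and it passed as higher without that library. Of its exon bases 27.8% overlap Ccdc24 on the opposite strand.

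The cytosolic synthetases changed little. Of 13, 3 rose (23.1%, beside 21.2% of all genes), 1 fell (7.69%, beside 20.0%) and 9 did not pass. Their median log2 fold change was 0.07, and all 13 lay between -0.19 and 0.24. For the 9 that did not pass, the 95% interval stayed within 1.5-fold in either direction. Cars (chromosome 7, 143557230 to 143600090, minus strand), for cysteine, was at 50.9, 49.2 and 49.999 CPM in siCtrl and 58.3, 61.02 and 57.8 CPM in siRSL24D1. It rose 1.18-fold (log2 fold change 0.24, SE 0.04, adjusted p = 0.00296). Of these 13 synthetases, Cars was the only one whose call held without each library in turn and under the other 14 alternatives.

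Aars (chromosome 8, 111033144 to 111057664, plus strand), for alanine, was at 299.98, 293 and 278 CPM in siCtrl and 315, 339 and 325 CPM in siRSL24D1 and rose 1.12-fold (log2 fold change 0.17, adjusted p = 0.01896). Its call ended without siRSL24D1 2, siRSL24D1 3 or siCtrl 2, at adjusted p from 0.0561 to 0.0768. Of its exon bases, 14.3% overlap Exosc6 on the same strand. Tars (chromosome 15, 11382301 to 11399665, minus strand), for threonine, was at 140.02, 145 and 137 CPM in siCtrl and 149, 156 and 153 CPM in siRSL24D1 and rose 1.08-fold (log2 fold change 0.12, adjusted p = 0.0491), a call lost whichever library was left out (adjusted p = 0.0571 to 0.14). Sars (chromosome 3, 108424865 to 108445209, minus strand), for serine, was at 158, 164 and 146 CPM in siCtrl and 137, 144 and 129 CPM in siRSL24D1 and fell to 0.877 of siCtrl (log2 fold change -0.19, adjusted p = 0.0289). Leaving out any library other than siCtrl 3 and siRSL24D1 2 ended it (adjusted p = 0.0771 to 0.114). In each of these 3 genes the groups did not overlap. The gap between the nearest libraries of the groups was smaller than the range within siCtrl, while the group means differed by more than that range.

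The 9 other synthetases had log2 fold changes from -0.09 (Eprs) to 0.18 (Iars). Eprs, which loads glutamate and proline, was the most abundant of the 13 per kilobase of transcript, at a level of 107 CPM per kb in siCtrl and 100.5 in siRSL24D1. Lars, for leucine, was at 72.2 and 69.3, and Gars, for glycine, at 70.7 and 71.7. Cars was the least abundant, at 15.5 and 18.3. The order of Lars and Gars differed between the groups. Wars (adjusted p = 0.0529) and Mars (0.199), for tryptophan and methionine, were higher in every siRSL24D1 library, and Eprs (0.0961) was lower in every one. Wars passed as higher with library totals, with the filter of 1 CPM in 3 libraries and with the length correction. Eprs passed as lower with the length correction and without siCtrl 3. Iars (adjusted p = 0.0833), Nars (0.406), Lars (0.259), Yars (0.634), Hars (0.202) and Gars (0.6498) had groups that overlapped. Of the exon bases of Hars, 7.97% overlap those of its mitochondrial relative Hars2 on the opposite strand.

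Beyond the 13, the synthetase machinery also went both ways. Of 10 further cytosolic synthetase subunits and scaffold proteins, 1 rose and 4 fell (10.0% and 40.0%, beside 21.2% and 20.0% of all genes). Their median log2 fold change was -0.05. Kars, for lysine, was at 544, 539 and 494 CPM in siCtrl and 426, 440.02 and 396 CPM in siRSL24D1 and fell (log2 fold change -0.32, adjusted p = 0.00263). Dars, for aspartate, was at 222, 221 and 206 CPM in siCtrl and 186, 194 and 186 CPM in siRSL24D1 and fell as well (log2 fold change -0.20, adjusted p = 0.00777). Neither gene's groups overlapped. Farsa, a subunit for phenylalanine, was at 90.96, 92.6 and 84.5 CPM in siCtrl and 98.3, 109.8 and 103 CPM in siRSL24D1 and rose by 0.21 on the log2 scale (adjusted p = 0.0156). When any library other than siCtrl 3 and siRSL24D1 2 was left out, 2 of them fell; without siCtrl 3, 2 rose. Aimp1, Aimp2 and Eef1e1 belong to the scaffold of the multi-synthetase complex. Of these 3 scaffolds, Eef1e1 fell (log2 fold change -0.15, adjusted p = 0.0359), while Aimp1 and Aimp2 did not pass.

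Of the 17 synthetases that work in mitochondria, 4 rose and 5 fell (23.5% and 29.4%, beside 21.2% and 20.0% of all genes), with a median of 0.05. Iars2, for isoleucine, was at 138, 144 and 139.9 CPM in siCtrl and 102, 100.3 and 97.7 CPM in siRSL24D1 and fell with no overlap (log2 fold change -0.49, adjusted p = 7.5e-05). Its cytosolic counterpart Iars had a log2 fold change of 0.18 and did not pass. Iars did pass as higher without siCtrl 3, and with the replicate block, alone or with the GC or length correction. Vars2, for valine, was at 30.01, 32.5 and 29.9 CPM in siCtrl and 26.5, 25.1 and 24.3 CPM in siRSL24D1 and fell (log2 fold change -0.28, adjusted p = 0.00565). Mars2, for methionine, was at 19.8, 20.3 and 22.4 CPM in siCtrl and 25.9, 27.4 and 25.4 CPM in siRSL24D1, and Cars2, for cysteine, at 30.2, 27.7 and 26.1 CPM in siCtrl and 33.1, 35.2 and 35.6 CPM in siRSL24D1. They rose by 0.33 and 0.31 on the log2 scale (adjusted p = 0.00434 and 0.00653). For cysteine, both the cytosolic and the mitochondrial enzyme therefore rose. Without siRSL24D1 3 the number that rose was 2, and without siCtrl 1 or siCtrl 2 the number that fell was 3.

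Other known ATF4 targets held the largest rise and the largest fall among all the pathway lists described here. Of 16 tested, 2 rose and 5 fell (12.5% and 31.2%, beside 21.2% and 20.0% of all genes), with a median of -0.08. Fgf21 had too few counts to test. Atf3, a stress-induced factor of the ATF family that p53 also induces, was at 12.4, 12.2 and 11.5 CPM in siCtrl and 27.1, 34.3 and 32.2 CPM in siRSL24D1. It rose 2.598-fold (log2 fold change 1.38, SE 0.09, adjusted p = 4.2e-05). Sesn2, a sestrin induced by ATF4 and by p53 that restrains mTORC1, was at 31.97, 33.4 and 34.6 CPM in siCtrl and 61.8, 61.8 and 62.1 CPM in siRSL24D1 and rose 1.86-fold (adjusted p = 2.1e-05). Both were far above siCtrl in every siRSL24D1 library.

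Metabolic and mitochondrial genes made up 4 of the 5 that fell. The list also holds the metabolic genes Cth, Pck2, Aldh18a1 and Bcat1, which did not pass. Their log2 fold changes were -0.06, -0.09, 0.10 and 0.04. Pycr1, which makes proline in mitochondria, was at 11.8, 11.9 and 11.7 CPM in siCtrl and 6.85, 6.21 and 6.05 CPM in siRSL24D1 and fell to 0.5398 of siCtrl (log2 fold change -0.89, SE 0.08, adjusted p = 0.000108). Gpt2, the mitochondrial alanine transaminase, was at 42.9, 46.5 and 41.1 CPM in siCtrl and 31.6, 29.6 and 28.6 CPM in siRSL24D1 and fell (log2 fold change -0.54, adjusted p = 0.000395). Mthfd1l, Klhl24 and Lonp1 also fell, with log2 fold changes of -0.39, -0.39 and -0.25. Atf3 and Pycr1 both hold the C/EBP-ATF response element before their start (at chr1:191183416-191183463 and chr11:120643824-120643871, both on the minus strand), shown here because they changed in opposite directions.
Atf3: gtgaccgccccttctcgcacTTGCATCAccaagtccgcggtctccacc
Pycr1: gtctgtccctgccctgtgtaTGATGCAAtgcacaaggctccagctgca
Of the 14 genes of this list with a window, 6 held the element (42.9%).

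Serine, glycine and one-carbon genes outside the 43 members changed in both directions, 4 up and 3 down of 10, with a median of 0.02. These were 40.0% and 30.0%, beside 21.2% and 20.0% of all genes. Mat2a, which makes the methyl donor S-adenosylmethionine, was at 182, 173 and 179 CPM in siCtrl and 288, 297 and 300.5 CPM in siRSL24D1 and rose 1.66-fold (adjusted p = 2.2e-05). Tdh, the threonine dehydrogenase on which mouse embryonic stem cells depend, was at 289, 279 and 254 CPM in siCtrl and 367, 359 and 345 CPM in siRSL24D1 and rose (log2 fold change 0.38, adjusted p = 0.00105). Gcat, which takes the product of Tdh to glycine, was at 72.7, 73.5 and 61.5 CPM in siCtrl and 51.4, 49.7 and 44.01 CPM in siRSL24D1 and fell (log2 fold change -0.52, adjusted p = 0.00188), and Gldc, of the glycine cleavage system, was at 187, 179.9 and 182 CPM in siCtrl and 150.2, 147 and 142 CPM in siRSL24D1 and fell (log2 fold change -0.32, adjusted p = 0.000506). Thus the 2 enzymes of the threonine route, acting one after the other, moved in opposite directions.

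Of 13 other amino acid transporters, 4 rose and 1 fell (30.8% and 7.69%, beside 21.2% and 20.0% of all genes), with a median of 0.06. Slc7a2, another carrier of cationic amino acids, was at 4.05, 3.56 and 4.51 CPM in siCtrl and 6.12, 5.96 and 5.81 CPM in siRSL24D1 and rose (log2 fold change 0.56, adjusted p = 0.00438), and Slc7a7, a light chain that exports cationic amino acids, was at 50.9, 47.7 and 50.3 CPM in siCtrl and 61.1, 72.5 and 66.2 CPM in siRSL24D1 and rose by 0.42 on the log2 scale (adjusted p = 0.00154). Slc1a5, the glutamine carrier ASCT2, was at 16.4, 16.5 and 16.1 CPM in siCtrl and 13.3, 11.97 and 12.6 CPM in siRSL24D1 and fell (log2 fold change -0.37, adjusted p = 0.002205). Slc7a6, the light chain closest in function to Slc7a7, did not pass (log2 fold change 0.04, adjusted p = 0.462).

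Among 12 genes of eIF2, its exchange factor eIF2B and their regulators, 4 rose and 3 fell, with a median of 0.08. Of the 12, 58.3% passed, beside 41.2% of all genes. Over all genes, 21.2% rose and 20.0% fell. Beside the kinases given above, Impact, an inhibitor of GCN2, was at 349.5, 329.5 and 328 CPM in siCtrl and 388, 423 and 399.9 CPM in siRSL24D1 and rose (log2 fold change 0.27, adjusted p = 0.00285), and Gcn1l1, the activator of the same kinase, rose by 0.17 on the log2 scale (adjusted p = 0.0127). Of the eIF2B subunits, the log2 fold change was 0.23 for Eif2b4, which rose, and -0.19 for Eif2b3, which fell. Eif2b3 was at 49.3, 49.1 and 45.8 CPM in siCtrl and 41.2, 44.3 and 40.9 CPM in siRSL24D1, and it did not pass when any library other than siCtrl 3 and siRSL24D1 2 was left out (adjusted p = 0.07 to 0.0832). The number that rose was 2 without siCtrl 2, and the number that fell was 1 without siCtrl 1, siCtrl 2 or siRSL24D1 3.

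Most of the genes listed for the other arms of the unfolded protein response were higher. Of 16 tested targets of ATF6 and XBP1, 10 rose (62.5%, against 21.2% of all genes) and 0 fell (against 20.0%). Their median log2 fold change was 0.17, beside 0.02 over all genes. Like the other lists, this list was chosen with earlier results of these data known. At an unadjusted p under 0.05, 11 were higher and 0 lower, and the DESeq2 Wald test and limma-voom called 7 and 11 higher and 0 lower. Hspa5, the main chaperone BiP of the endoplasmic reticulum, was at 435, 431 and 418 CPM in siCtrl and 537, 595 and 555 CPM in siRSL24D1 and rose 1.31-fold (adjusted p = 0.000467). Dnajb11, one of its co-chaperones, was at 47.1, 45.4 and 47.8 CPM in siCtrl and 63.04, 68.8 and 67.4 CPM in siRSL24D1 and rose (log2 fold change 0.51, adjusted p = 0.000171). On the log2 scale, Xbp1 itself rose by 0.22 and Calr, calreticulin, by 0.34.

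The list was not uniform. The lowest log2 fold change was that of Pdia6, a disulfide isomerase (-0.11, 95% interval -0.22 to 0.00091), which did not pass. The log2 fold change of Hsp90b1 was -0.03 (95% interval -0.11 to 0.05) and that of Sdf2l1 -0.02 (-0.19 to 0.14), and neither passed. Syvn1, a ubiquitin ligase of the same compartment, was at 6.65, 7.28 and 10.3 CPM in siCtrl and 11.98, 10.4 and 12.1 CPM in siRSL24D1 and rose (log2 fold change 0.50, adjusted p = 0.0335); it did not pass when any library other than siCtrl 3 and siRSL24D1 2 was left out (adjusted p = 0.0878 to 0.109). The number that rose was 5 without siCtrl 1 and 6 without siCtrl 2 or siRSL24D1 1, and 1 fell without siCtrl 3 or siRSL24D1 2.

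**Figure D4:**
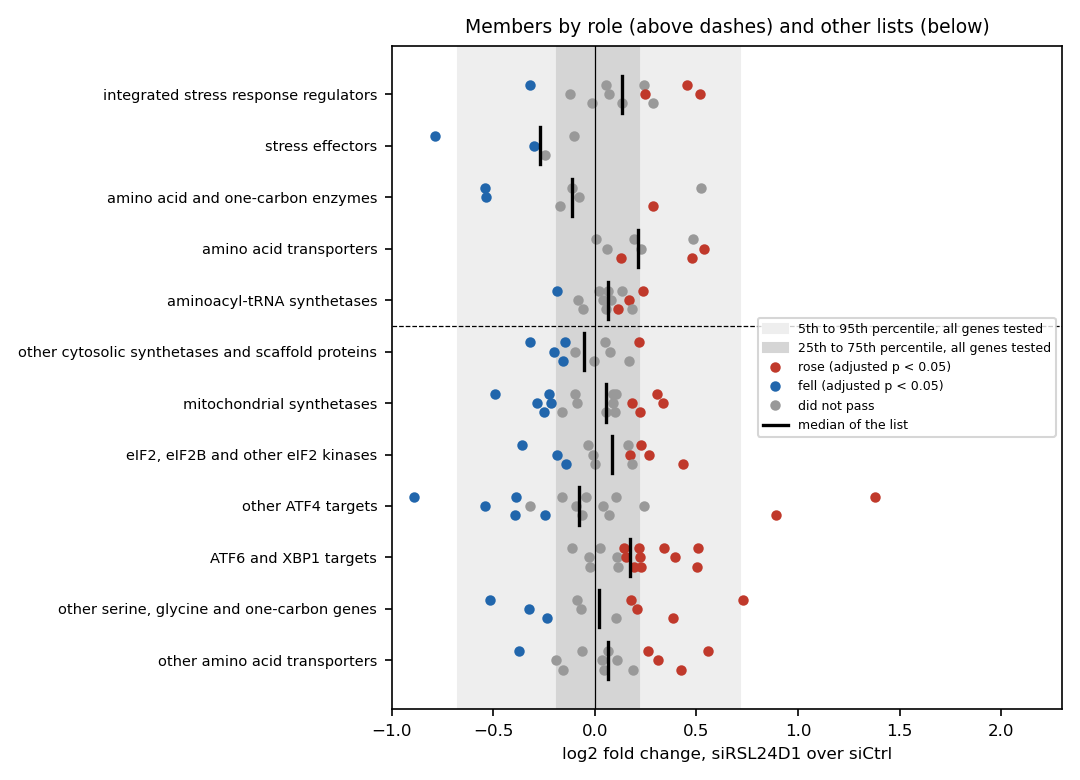
Log2 fold change, siRSL24D1 over siCtrl, of every tested gene in the 5 role groups of members (above the dashed line) and the 7 other pathway lists (below it); points are genes, red rose, blue fell, grey did not pass, black bars are list medians, and the shaded bands are the middle 50% and 90% of all genes tested. Most points of each list lie within the outer band of -0.67 to 0.72, with Atf3, Sesn2 and Pycr1 among those beyond it.

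Which of the 16 called members depend on single libraries or settings was counted over 20 alternatives. The 10 members Trib3, Ppp1r15a, Eif2ak4, Stc2, Asns, Phgdh, Mthfd2, Slc7a1, Slc38a2 and Cars passed in the same direction in each of the 20. Atf4, Ddit4, Slc3a2, Aars, Sars and Tars lost the call in 2 to 15 of them. Leaving out siRSL24D1 3 took the number of members that rose from 10 to 6. In the same fit, which had fewer libraries, the share of all genes that passed went from 41.2% to 30.0%. For the synthetases the number that rose was 1 without siCtrl 2, siRSL24D1 2 or siRSL24D1 3, and the number that fell was 2 without siCtrl 3, 1 without siRSL24D1 2 and 0 without any of the other 4 libraries. Of the 27 members that did not pass, 23 had a 95% interval within 1.5-fold in either direction, while Atf5, Aldh1l2, Slc7a11 and Slc6a9 did not.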

How the data were processed

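The deposited file gives estimated counts for each gene symbol in the 6 libraries, with no scaling; in each library 21.59% to 22.65% of the values were not whole (tolerance 1e-09). Per the submitters' processing notes, STAR 2.7.0f, Salmon 0.14.1 and the build GRCm38 were used; nothing read here gives the annotation release, filters or strand setting. TRIzol was used for extraction and a strand-specific kit for total RNA made the libraries, per the labels' protocols. The samples are called independent triplicates in the series' design text.

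Here the estimated counts were rounded; the test had been planned for counts. A filter (filterByExpr, at least 10 counts, 15 in total) kept 15084 genes. TMM scaling and the two-sided quasi-likelihood F test of edgeR 4.0.16 (R 4.3.3) compared siRSL24D1 with siCtrl; the groups were the sole term. Benjamini-Hochberg adjustment ran over all genes kept, with calls under 0.05. Standard errors and 95% intervals come from the F statistic. Common biological variation was 7.48%. Levels per kilobase use the longest protein-coding transcript in GENCODE M21 (GRCm38), found for all 43 members; the isoforms in use may differ. Exon overlaps come from GENCODE M21. The promoter sequence of 1 member with the element is not reported here. On simulated data for this comparison (14943 genes) the test recovered 22% of genes changed 1.25-fold, 88% changed 1.5-fold and 98% changed 2-fold, with 0.0678% of unchanged genes called. There, 14743 genes were unchanged and 50 were changed at each fold, all of them well counted. In the data 41.2% of all genes passed, so the adjustment was stricter in the simulation. These shares therefore do not carry over to the data.

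The members and lists were chosen with earlier results of these data known. Named with values in every library were Rsl24d1, Atf4, Ddit3, Trib3, Chac1, Asns, Phgdh, Slc7a11, Slc7a3 and, per role, up to 3 called members with the largest rise and fall; in the other lists, the 2 with the largest rise and fall. Other genes were named after their values were seen. Alternatives were size factors from DESeq2, library totals or upper quartiles; no filter, or 1 CPM in 3 libraries; the Wald test of DESeq2 1.42.0 and limma-voom (limma 3.58.1); a threshold of 0.01; the replicate number as a block; a loess correction for GC or for length, each also with that block; each library left out; and, chosen after seeing the data, values not rounded.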

Additional observations from a re-analysis of the deposited data

How the results depend on the processing

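Of the results for lists and for all genes, 446 values under alternatives other than leaving out a library stayed near the main value and 30 moved; of those without 1 library, 169 stayed and 35 moved. At an adjusted p under 0.01, 1886 genes were higher and 1867 lower, 6 members rose, 1 effector fell, 1 synthetase rose and 0 fell, 0 other cytosolic synthetase genes rose and 2 fell, 2 mitochondrial synthetases rose and 3 fell, 2 eIF2 genes rose and 1 fell, and 4 ATF6 and XBP1 targets rose. The number of regulators that fell was 2 with DESeq2 size factors, upper-quartile scaling, the GC correction and the length correction with or without the block. The median of the regulators was 0.158 with library totals, 0.107 with upper quartiles, 0.105 with the length correction and 0.107 with that correction and the block. Of the 13 synthetases 1 rose with upper quartiles, and 2 fell with the length correction with or without the block. Of the other cytosolic synthetase genes 2 rose with library totals, the replicate block, the GC correction with the block and the length correction with or without it. The share of all calls that were higher was 51.4%, from 45.0% with upper quartiles to 56.7% with library totals. The cause of these shifts was not tested. Leaving out 1 library at a time gave 2210 to 3356 genes higher and 2147 to 3285 lower, 6 to 11 members that rose and 4 to 8 that fell. In the same runs the regulators' median was 0.106 to 0.17 and 2 to 4 rose, 1 to 2 effectors fell with a median of -0.304 to -0.227, the enzymes' median was -0.147 to -0.093 and 2 to 3 fell, and 2 to 4 transporters rose with a median of 0.145 to 0.307. Between 1 and 3 synthetases rose and 0 to 2 fell, 1 to 2 other cytosolic ones rose and 2 to 5 fell, 2 to 4 mitochondrial ones rose and 3 to 6 fell, 2 to 4 eIF2 genes rose and 1 to 3 fell, 2 to 3 other ATF4 targets rose, and 5 to 9 ATF6 and XBP1 targets rose and 0 to 1 fell; fewer samples enter these fits. Signs changed for 5 members, none of them called in the main test or where the sign changed: Slc1a4 (-0.00684 with DESeq2 size factors, -0.0239 with upper quartiles, -0.0022 without a filter, -0.00686 with the DESeq2 Wald test, -0.0176 and -0.0181 with the length correction without and with the block, -0.0294 without siCtrl 1, -0.000609 without siRSL24D1 1 and -0.0152 without siRSL24D1 2, up to 0.0271 without siRSL24D1 3), Nupr1 (0.00799 with library totals, 0.0625 and 0.0612 with the length correction without and with the block, 0.0767 without siCtrl 1 and 0.116 without siRSL24D1 3, down to -0.118 without siRSL24D1 2), Gars (-0.0061 with upper quartiles), Yars (-0.0198 without siRSL24D1 2, up to 0.0736 without siCtrl 1) and Cebpb (-0.0927 without siCtrl 2, up to 0.205 without siCtrl 3). The replicate numbers share no stated source, and deviations from the group means correlated over 10126 genes at -0.497, 0.473 and 0.627 for same-numbered libraries, so the numbers were not read as pairs; siRSL24D1 1 and 2 did not correlate best with their own number. With the replicate block 11 members rose and 7 fell, among 3327 genes higher and 3104 lower. Depth limits Chac1, Slc7a11, Aldh1l2 and Slc6a9, whose intervals are the widest among the members.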

Other observations

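Within each group the libraries differed along a direction that crossed the groups. Over 10126 genes, the deviations of siCtrl 3 from its group mean correlated with those of siRSL24D1 1 (r = 0.50) and siRSL24D1 3 (r = 0.63), and those of siCtrl 1 and siCtrl 2 with those of siRSL24D1 2 (r = 0.73 and 0.47); these are correlations across genes, which are not independent. Deviations within a group sum to 0, so these correlations are also tied to one another. Among the members this direction showed, for example, in Slc7a5, Slc6a9 and Iars, where siCtrl 3 lay among the siRSL24D1 libraries. Iars was at 97.5, 101 and 118 CPM in siCtrl and 124, 112 and 122 CPM in siRSL24D1. The collagen gene Col1a1 was at 20.8, 24.6 and 44.2 CPM in siCtrl and 49.03, 28.99 and 51.5 CPM in siRSL24D1, also with siCtrl 3 among the siRSL24D1 values. Without siCtrl 3, 11 members rose and 8 fell, against 10 and 6 with it. Over all genes, 3356 were higher and 3285 lower without siCtrl 3, against 3191 and 3021 with it (43.5% and 41.2% of genes tested). What the libraries share was not tested.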
